A study of Rattus norvegicus with 12 samples.

Results

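Complement components and receptors were followed gene by gene in the central nucleus of the amygdala (CeA) of rats after chronic intermittent ethanol (CIE). Members were taken by symbol from the deposited table, which lists 37209 genes. They were 9 genes: the C1q chains *C1qa*, *C1qb* and *C1qc*, the protease genes *C1s* and *C2*, the central component *C3*, the inhibitor gene *Serping1*, and the anaphylatoxin receptor genes *C3ar1* and *C5ar1*. All 9 were found and all 9 passed the filter on low counts. RNA came from brain punches of 12 adult male Sprague Dawley rats, wild type in genotype and 14 to 16 weeks old, with 1 library per rat. The 6 rats of the CIE group breathed ethanol vapor intermittently each day for several weeks and were killed at the end of the last exposure, without withdrawal. The 6 rats of the Control group breathed air only. Ethanol was thus given by the experimenter and not drunk, only males were used, 1 hemisphere per rat was taken, and the labels do not say which rats shared a cage. Rat numbers are those of the labels. CIE rats carry 1 to 6 and Control rats 7 to 12, so CIE and anything that runs with the numbering cannot be told apart.

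Complement is a cascade of plasma and tissue proteins that marks particles and cells for removal. In the classical pathway, C1q, a bouquet built from A, B and C chains, binds its target and activates the proteases C1r and C1s, which cleave C4 and C2 into a convertase that splits C3. The split products C3a and C5a signal through the receptors encoded by *C3ar1* and *C5ar1*, and the serpin encoded by *Serping1* inactivates C1r and C1s. In the brain, microglia are the main source of C1q, C3ar1 and C5ar1, and complement is known for tagging synapses that microglia remove.

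Raw counts were available for every rat, with totals from 39082548 counts (Control rat 11) to 95647601 counts (Control rat 8). Expression is given as CPM, the counts of a gene scaled to a common library size with TMM factors. A log2 fold change is CIE against Control and is negative where CIE rats had the lower level. The GABA neuron markers *Gad1* and *Gad2* and the CeA marker *Prkcd* were detected in every rat. Of 15 microglial markers, 14 were measurable, and *Gpr34* was listed at 0 in every rat. The gene annotation used for counting is not given in the sources used here, so a gene listed at 0 in every rat may be one that was not counted, and its 0 is not read as absence. Markers chosen for neighbouring tissue also varied between rats, and whether the punches held such tissue was not tested. The summed CPM of 4 cortical glutamatergic markers ranged from 8.19 to 392 in CIE rats and from 10.2 to 148 in Control rats. The summed CPM of 5 striatal projection neuron markers ranged from 294 to 2374 in CIE rats and from 141 to 2681 in Control rats. It was highest in Control rat 10 and CIE rat 2. The part of neighbouring tissue in the values below was not tested, beyond a fit with cortical and striatal marker scores as covariates. In that fit 0 of the 9 members reached a nominal p of 0.05 by edgeR, where 9.53% of all genes did.

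No complement member separated the groups. By edgeR's quasi-likelihood F test, 0 of 9 members passed a nominal p of 0.05, where 8.31% of the 20944 genes tested did, and 0 of 9 passed 5% FDR, where 0.363% did. DESeq2 called 0 of 9 at a nominal p of 0.05 and 0 of 9 at 5% FDR, against 7.48% and 1.41% of all genes. With limma-voom and sample quality weights the counts were again 0 and 0, against 17.2% and 1.12%. The CPM of both groups overlapped for every member, while 0.893% of all genes had groups without overlap. The fitted log2 fold change was below 0 for 8 members and above 0 for 1, *C3*, with a median of -0.10 over the 9 members and of 0.00096 over all genes tested. The sign of *Serping1* turned with the scaling, as given beside its values.

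**Figure D1:**
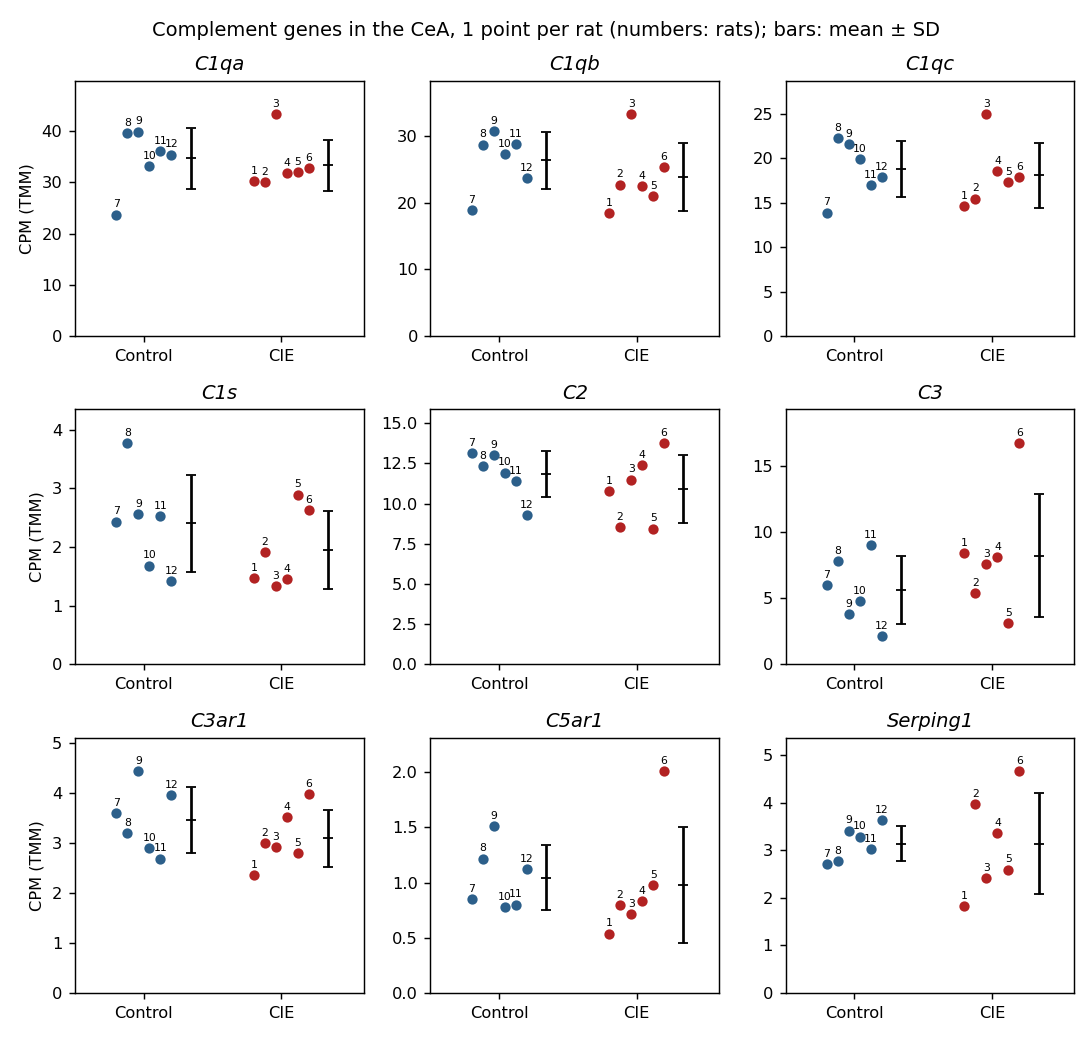
CPM (TMM) of the 9 complement members, with 1 panel per gene, 1 point per rat and the mean ± SD of 6 rats per group. CIE and Control points overlap in every panel, the single high *C1qa* point of the CIE group is rat 3 at 43.3 CPM, and the high *C3* and *C5ar1* points are CIE rat 6 at 16.8 and 2.01 CPM.

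The C1q chains were measured with 659 to 3810 counts in a rat and differed between the groups by less than the spread among rats. *C1qa*, the A chain, had a lowest, median and highest value of 29.99, 31.9 and 43.3 CPM in CIE rats and of 23.7, 35.8 and 39.9 CPM in Control rats. The highest rat (CIE rat 3) and the lowest rat (Control rat 7) each lay outside the range of the other group, and the difference between the groups was smaller than the spread within them. Group means were 33.4 ± 4.997 and 34.7 ± 5.96 CPM (SD, n = 6 per group). The log2 fold change of *C1qa* was -0.06 ± 0.12 (SE, edgeR p = 0.657, FDR = 0.939; two-sided exact permutation p = 0.753). Its 95% confidence interval ran from -0.32 to 0.21, that is from 0.8002-fold to 1.16-fold. Leaving out 1 rat moved the estimate between -0.15 (without Control rat 7) and -0.0046 (without Control rat 8).

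*C1qb*, the B chain, took values of 18.5, 22.7, 33.3, 22.5, 21.03 and 25.4 CPM in CIE rats 1 to 6 and of 19.0, 28.7, 30.7, 27.3, 28.8 and 23.7 CPM in Control rats 7 to 12. Most CIE rats lay below most Control rats, but CIE rat 3 was the highest of all 12 and Control rat 7 the next to lowest. The log2 fold change was -0.14 ± 0.14 (SE, edgeR p = 0.333, FDR = 0.851, exact p = 0.370), with an interval from -0.45 to 0.16. Without CIE rat 3 the log2 fold change of *C1qb* was -0.26, on the edge of the nominal threshold in edgeR (p = 0.05004, FDR = 0.377, exact permutation p = 0.0996). *C1qc*, the C chain, averaged 18.1 ± 3.67 CPM in CIE rats (14.6 to 24.96) and 18.8 ± 3.14 CPM in Control rats (13.9 to 22.3), and its log2 fold change was -0.05 ± 0.14 (SE, edgeR p = 0.717, FDR = 0.951, exact p = 0.721), with an interval from -0.35 to 0.25. *C1qc* thus had the same extreme rats as *C1qa*, with CIE rat 3 highest and Control rat 7 lowest.

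The 3 chain genes are consecutive neighbours on chromosome 5 in the RefSeq annotation of GRCr8, in the order *C1qb*, *C1qc*, *C1qa*. The 250 bases before the RefSeq start of *C1qa* (chr5:154419934-154420183, minus strand) and *C1qb* (chr5:154407828-154408077, minus strand) are shown because the chains varied together, with *C3* (chr9:2201340-2201589, minus strand) and *C3ar1* (chr4:157756531-157756780, minus strand) beside them. These were the 4 members with an entry in the promoter table. All are in GRCr8, 5′ to 3′ on the strand of the gene, with motif matches in capitals.
C1qa promoter: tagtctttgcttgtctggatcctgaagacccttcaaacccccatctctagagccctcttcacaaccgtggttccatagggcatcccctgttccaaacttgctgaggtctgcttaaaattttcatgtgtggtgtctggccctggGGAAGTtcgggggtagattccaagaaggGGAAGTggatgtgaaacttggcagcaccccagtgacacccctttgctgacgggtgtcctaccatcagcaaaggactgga
C1qb promoter: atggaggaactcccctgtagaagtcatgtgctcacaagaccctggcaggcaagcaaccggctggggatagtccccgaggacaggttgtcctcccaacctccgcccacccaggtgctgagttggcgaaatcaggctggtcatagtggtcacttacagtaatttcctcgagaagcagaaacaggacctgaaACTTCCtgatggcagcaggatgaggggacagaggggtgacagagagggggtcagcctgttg
C3 promoter: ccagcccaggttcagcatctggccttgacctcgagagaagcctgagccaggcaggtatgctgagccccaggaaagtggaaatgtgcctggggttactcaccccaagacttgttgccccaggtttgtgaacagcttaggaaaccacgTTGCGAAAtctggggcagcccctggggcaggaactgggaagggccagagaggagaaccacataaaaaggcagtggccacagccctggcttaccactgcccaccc
C3ar1 promoter: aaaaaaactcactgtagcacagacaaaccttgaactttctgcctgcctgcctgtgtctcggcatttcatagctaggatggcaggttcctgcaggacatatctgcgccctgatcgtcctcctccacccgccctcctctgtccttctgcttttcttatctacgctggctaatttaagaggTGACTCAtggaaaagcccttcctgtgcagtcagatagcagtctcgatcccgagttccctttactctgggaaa
The letters GGAAGT, the core bound by ETS factors such as the myeloid factor PU.1, stood at 107 to 102 and at 79 to 74 bases before the start of *C1qa*, and on the opposite strand, read as ACTTCC, at 61 to 56 bases before the start of *C1qb*. This motif was added after the sequences had been read, and 19.2% of 33465 promoters of the same length held it on either strand. The longer form GAGGAAG, present in 10.2% of promoters, was in none of these 4 sequences. A C/EBP-type match to TTGCNNAA, spelled TTGCGAAA, lay 104 to 97 bases before the start of *C3* (9.22% of promoters), and the AP-1 letters TGACTCA lay 72 to 66 bases before the start of *C3ar1* (4.05% of promoters). An NF-kB type motif (0.314% of promoters) and TATAAA (12.9%) were searched on both strands and matched in none of these 4 windows. A match is a description of letters and not of a bound site.

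The C1q chains varied together from rat to rat, but not only with each other. *C1qb* was closer to *S100a13* (r = 0.91) than to either other chain, and the share of all genes with such an r was not counted. Across the 12 rats, log2 CPM of *C1qa* and *C1qb* had a Pearson r of 0.88 and a Spearman rho of 0.91 (100000 permutations, two-sided p = 7.0e-05 and 8.0e-05, adjusted over 21 relations 0.00115 and 0.00168). *C1qa* and *C1qc* had r = 0.89 and rho = 0.83 (permutation p = 0.00011 and 0.00161, adjusted 0.00115 and 0.0169). *C1qb* and *C1qc* had r = 0.88 and rho = 0.76 (permutation p = 0.00026 and 0.00619, adjusted 0.00182 and 0.0433). All 3 relations kept an r of at least 0.79 without the 2 rats farthest from the median of the first gene, which were CIE rat 3 with Control rat 7 or with CIE rat 1. Within the CIE group r was 0.90, 0.96 and 0.92 (exact permutation p = 0.0583, 0.0222 and 0.0444), and within the Control group 0.92, 0.88 and 0.85 (exact permutation p = 0.05, 0.0583 and 0.0667), in the same order of pairs.

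Ratios between chains, which do not depend on library scaling, varied less than the chains themselves. The coefficient of variation (CV) over 12 rats was 15.5% for *C1qa*, 18.7% for *C1qb* and 17.7% for *C1qc* in CPM, and 8.81% for the count ratio of *C1qb* to *C1qa*, 7.67% for *C1qc* to *C1qa* and 8.77% for *C1qc* to *C1qb*. Counting error alone would give 3.29%, 3.63% and 3.85% for these ratios. The ratios therefore varied beyond counting error, though by less than the genes. The ratio of *C1qb* to *C1qa* was 0.713 ± 0.0669 in CIE and 0.764 ± 0.0572 in Control rats (exact permutation p = 0.188), and the other ratios did not separate the groups either (exact permutation p = 0.907 for *C1qc* to *C1qa* and 0.240 for *C1qc* to *C1qb*). These are count ratios and not ratios of transcript numbers, since they were not divided by length.

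**Figure D2:**
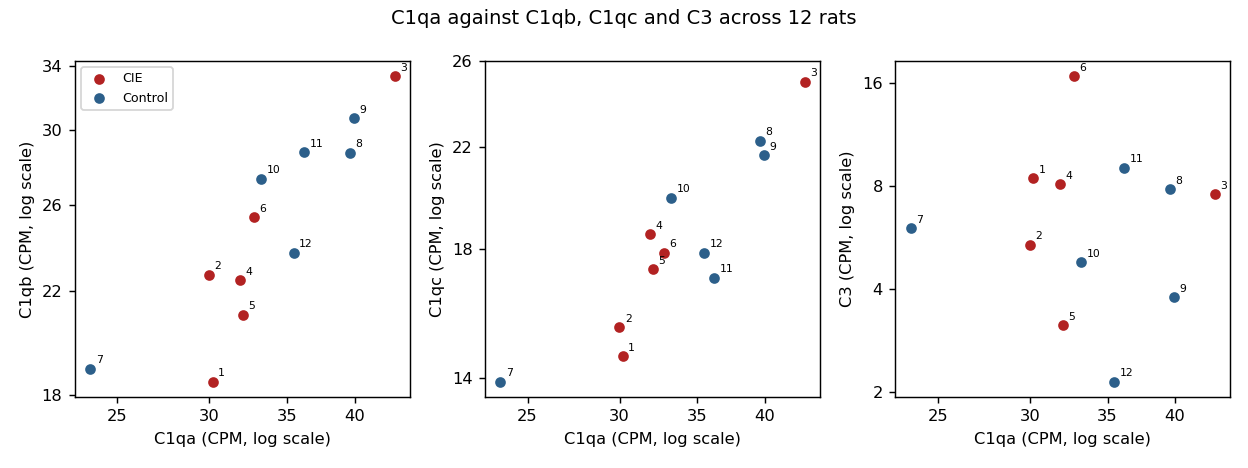
CPM of *C1qb*, *C1qc* and *C3* against *C1qa* on log axes, with 1 numbered point per rat coloured by group. The C1q panels follow a line in both groups (r = 0.88 and 0.89 over 12 rats), and the *C3* panel shows the wide vertical spread of *C3*, with CIE rat 6 at the top and Control rat 12 at the bottom.

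*C1s*, the protease that cleaves C4 and C2, was scarce and uneven. Its values were 1.48, 1.92, 1.33, 1.46, 2.89 and 2.63 CPM in CIE rats 1 to 6 and 2.43, 3.78, 2.56, 1.68, 2.53 and 1.42 CPM in Control rats 7 to 12, from 86 to 363 counts. CIE rat 3, highest in all 3 C1q chains, was the lowest of the 12 rats in *C1s*. The log2 fold change was -0.30 ± 0.26 (SE, edgeR p = 0.270, FDR = 0.824, exact p = 0.316) with an interval from -0.86 to 0.26, and it ranged from -0.45 without CIE rat 5 to -0.11 without Control rat 8. On the linear scale this interval reaches from 0.551-fold to 1.20-fold.

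*C2*, the protease part of the classical C3 convertase, averaged 10.9 ± 2.12 CPM in CIE rats (8.44 to 13.8) and 11.8 ± 1.42 CPM in Control rats (9.27 to 13.1), with a log2 fold change of -0.12 ± 0.13 (SE, edgeR p = 0.375, FDR = 0.865, exact p = 0.348) and an interval from -0.40 to 0.16. Leaving out 1 rat moved the log2 fold change of *C2* between -0.20 (without CIE rat 6) and -0.056 (without CIE rat 5). *Zbtb12* overlaps *C2* in the RefSeq annotation of GRCr8, and because the strand and overlap settings of the counting were not given in the sources used here, reads of the overlap could not be assigned. *Serping1*, the C1 inhibitor, had equal means of 3.14 ± 1.06 CPM in CIE rats (1.83 to 4.66) and 3.14 ± 0.366 CPM in Control rats (2.71 to 3.64). Its log2 fold change was -0.00063 ± 0.20 (SE, edgeR p = 0.998, FDR = 0.9998, exact p = 0.784), with an interval from -0.43 to 0.43, and it was 0.016 when counts were scaled by library size only and 0.0070 with DESeq2's size factors. The means hid a difference in range, as the lowest rats of *Serping1* (CIE rats 1, 3 and 5) and its highest rats (CIE rats 6 and 2) were all in the CIE group. The CV was 33.7% in CIE and 11.7% in Control rats, and this difference in spread was not tested.

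*C3*, the component on which all pathways converge, was the only member with a positive fold change and the most variable. CIE rats 1 to 6 had 8.43, 5.38, 7.57, 8.09, 3.12 and 16.8 CPM, and Control rats 7 to 12 had 6.01, 7.83, 3.79, 4.78, 9.04 and 2.14 CPM. The highest rat was CIE rat 6 and the lowest Control rat 12, 7.83-fold apart, whereas CIE rat 5 lay below 5 of the 6 Control rats. Group means were 8.23 ± 4.64 CPM for CIE and 5.60 ± 2.57 CPM for Control, and the log2 fold change was 0.56 ± 0.38 (SE, edgeR p = 0.159, FDR = 0.755, exact p = 0.277). Its interval, from -0.25 to 1.37, covered folds from 0.842 to 2.59. Without CIE rat 6 the log2 fold change of *C3* was 0.23, without Control rat 12 it was 0.39, and without Control rat 11 it was 0.74. None of these passed the nominal threshold in edgeR. The estimate thus rested most on CIE rat 6, and to a lesser degree on Control rat 12.

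The spread of *C3* stood out from genes of similar expression. Its CV over the 12 rats was 55.4%, where counting error gives 5.33%, and 97.7% of the 3965 genes with a mean CPM within a factor of 2 of it had a lower CV (median 16.3%). The corresponding shares were 77.6% for *C1qa*, 84.8% for *C1qb*, 79.6% for *C1qc*, 78.6% for *C1s*, 71.7% for *C5ar1*, 62.1% for *C2*, 61.1% for *Serping1* and 37.3% for *C3ar1*. These shares describe the spread over all 12 rats, groups included, and carry no test.

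The anaphylatoxin receptors did not separate the groups. *C3ar1*, the receptor for C3a, had 2.35, 2.999, 2.92, 3.51, 2.79 and 3.97 CPM in CIE rats 1 to 6 and 3.602, 3.20, 4.43, 2.90, 2.69 and 3.96 CPM in Control rats 7 to 12. Its log2 fold change was -0.17 ± 0.16 (SE, edgeR p = 0.315, FDR = 0.842, exact p = 0.312), with an interval from -0.51 to 0.18. Leaving out 1 rat moved it between -0.25 (without CIE rat 6) and -0.083 (without Control rat 9). In *C3ar1* CIE rat 6 was again the highest of its group, but Control rat 9 was higher. *C5ar1*, the receptor for C5a, was the scarcest member, with 31 to 163 counts. It had 0.538, 0.7996, 0.711, 0.833, 0.979 and 2.01 CPM in CIE rats 1 to 6 and 0.851, 1.22, 1.51, 0.775, 0.801 and 1.12 CPM in Control rats 7 to 12. CIE rat 6 was the highest of all 12 and the other CIE rats lay at or below 0.979 CPM. The log2 fold change was -0.10 ± 0.30 (SE, edgeR p = 0.756, FDR = 0.958, exact p = 0.574), with an interval from -0.75 to 0.56. It was -0.44 without CIE rat 6 and 0.036 without Control rat 9, so its sign and size depended on single rats.

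Read across genes, a few rats accounted for most extremes. CIE rat 6 was the highest of the 12 rats in 4 members (*C2*, *C3*, *C5ar1* and *Serping1*), CIE rat 3 in the 3 C1q chains, and Control rats 8 and 9 in *C1s* and *C3ar1*. CIE rat 1 was the lowest in 4 members (*C1qb*, *C3ar1*, *C5ar1* and *Serping1*). Some cell marker sums were also extreme in these rats, and others were extreme in rats without an extreme member. CIE rat 6 had the highest summed CPM of the microglial (672), perivascular macrophage (24.2) and astrocyte (3325) marker lists. It had the lowest of the pan-neuronal (2024) and central amygdala neuron (1333) lists. CIE rat 1 had the lowest sums of the perivascular macrophage (13.2), astrocyte (2691), endothelial (319) and mural (83.5) lists and the highest of the cortical list (392). CIE rat 3 had the lowest oligodendrocyte (5266) and fibroblast (51.3) sums, while its microglial sum of 577 ranked in the middle, at 7 of 12. By contrast, CIE rat 4 had the lowest microglial (509) and the highest pan-neuronal (2501) sum. Control rat 10 had the highest endothelial (419), central amygdala neuron (2954) and striatal (2681) sums. Neither of these rats was the highest or the lowest in any member. The part of cell makeup in these extremes was not tested, and in bulk tissue fewer cells of a type and less RNA per cell cannot be told apart.

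**Figure D3:**
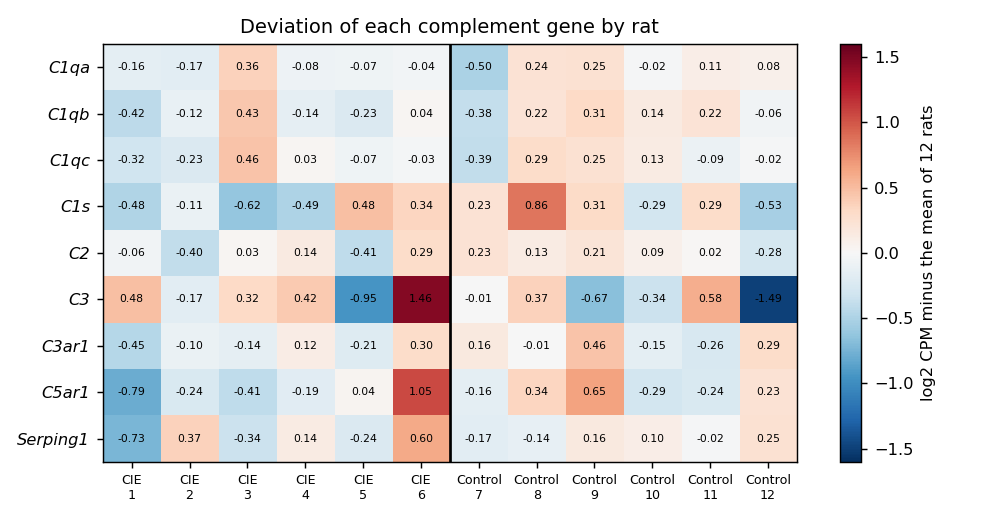
Heat map of log2 CPM minus the mean of 12 rats for the 9 members (rows) and 12 rats (columns), with CIE rats 1 to 6 at the left and Control rats 7 to 12 at the right. CIE rat 6 is above the mean in 7 members and CIE rat 1 in 1 member. The 3 C1q rows mostly have similar colours, with mixed signs in some rats, such as Control rat 11 (0.11, 0.22 and -0.09).

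Microglial markers, as the cells that make C1q, were compared beside the members. Of 14 markers tested, 2 were lower in the CIE group at a nominal p of 0.05 (8.31% of all genes were called in either direction) and 0 passed 5% FDR by edgeR (0.363% of all genes), and the median log2 fold change was -0.10, with 10 negative and 4 positive values. Their summed CPM was 509 to 672 in CIE rats (median 554) and 555 to 647 in Control rats (median 600). The fractalkine receptor gene *Cx3cr1* averaged 46.4 ± 4.80 CPM in CIE and 56.5 ± 3.59 CPM in Control rats, with 5 of 6 CIE rats below every Control rat (log2 fold change -0.28 ± 0.07 SE, edgeR p = 0.00169, FDR = 0.169, exact p = 0.00433). The call of *Cx3cr1* changed with the method, since it passed 5% FDR with limma-voom (FDR = 0.0118) and without CIE rat 6 (edgeR FDR = 0.0450), and not with DESeq2 (FDR = 0.0678). The purinergic receptor gene *P2ry13* was also lower at the nominal threshold (log2 fold change -0.33, edgeR p = 0.0232, FDR = 0.501, exact p = 0.0325), and the transcription factor gene *Sall1* had -0.19 (edgeR p = 0.0833, exact p = 0.0952). The median fold change of the members was close to that of this list, and the difference between the lists was not tested.

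Relative to the mean log2 CPM of the 14 microglial markers, a measure free of library scaling, 0 of 9 members differed between the groups at an exact permutation p of 0.05. The share of all genes past this threshold on this measure was not computed. This count, and those with 1 rat left out, therefore have no background beside them. *C3* had the largest difference, 0.61 in log2 units (exact permutation p = 0.180), and the other 8 lay between -0.20 (*C1s*) and 0.05 (*C1qa*). Leaving out 1 rat moved *C3* between 0.39 (without Control rat 12) and 0.85 (without CIE rat 5) and *C1s* between -0.33 (without CIE rat 5) and -0.068 (without Control rat 8), with 0 of 9 members past an exact permutation p of 0.05 in each case. With the microglial score as a covariate in edgeR, *C3* had a log2 fold change of 0.85 (FDR = 0.433) and was the 1 member of 9 past the nominal threshold in that fit, where 6.17% of all genes were. *C1qa*, *C1qb* and *C1qc* had 0.031, 0.016 and 0.070. Across rats, none of the 18 relations between a member and the microglial or the meningeal fibroblast score passed an adjusted p of 0.05. The closest were *C5ar1* and *C1qb* with the microglial score (r = 0.70 and 0.69, permutation p = 0.00986 and 0.0163, adjusted 0.0518 and 0.0569) and *C5ar1* with the fibroblast score (r = 0.68, permutation p = 0.0130, adjusted 0.0546). The relation of *C5ar1* to the microglial score fell to r = 0.40 without CIE rats 1 and 6 and so rests on those rats, whereas that of *C1qb* stayed at 0.68, and *C5ar1* with the fibroblast score had 0.55 without CIE rats 1 and 3. Both relations of *C5ar1* passed in 1 alternative each, with the microglial score on linear CPM (r = 0.76, adjusted permutation p = 0.0136) and with the fibroblast score after removal of the group means (r = 0.81, adjusted permutation p = 0.0143). Within the groups, r of *C1qb* with the microglial score was 0.64 in CIE and 0.69 in Control rats (exact permutation p = 0.233 and 0.178).

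Markers of several other cell types were lower in the CIE group. All 10 meningeal fibroblast markers were tested and had negative fold changes, 5 at a nominal p of 0.05 (8.31% of all genes) and 3 at 5% FDR (0.363% of all genes) by edgeR, and their summed CPM was 51.3 to 107 in CIE and 111 to 175 in Control rats. At the nominal threshold, 6 of 6 myelinating oligodendrocyte, 5 of 8 endothelial, 4 of 6 mural and 3 of 4 erythroid markers were lower, with 0, 0, 1 and 1 at 5% FDR, and 1 endothelial marker was higher. The erythroid sums did not overlap (3.53 to 9.70 CPM in CIE and 11.7 to 20.5 CPM in Control rats), and the oligodendrocyte (5266 to 12825 and 8052 to 15097), endothelial (319 to 408 and 342 to 419) and mural (83.5 to 132 and 115 to 133) sums did. *C1s*, *C3* and *Serping1* are also made by fibroblasts, and the part of any of these cells in the values of the members was not tested. The choroid plexus markers *Ttr* and *Kcnj13* were also listed at 0 in every rat, so the list could be read only from the other genes, whose summed CPM was at most 5.53 in CIE and 7.05 in Control rats.

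Of 44 other complement genes, 34 passed the filter and 10 did not, among them the liver-made lectins *Mbl1* and *Mbl2* and the terminal components *C8a*, *C8b* and *C9*, none of which exceeded 24 counts in a rat. Among the 34, edgeR called 1 higher and 1 lower at a nominal p of 0.05 (against 8.31% of all genes) and 0 at 5% FDR, with 16 positive and 18 negative fold changes and a median of -0.01. DESeq2 and limma-voom made 0 calls at 5% FDR as well. *Vtn*, vitronectin, an inhibitor of the terminal complex, averaged 18.8 ± 1.90 CPM in CIE and 21.7 ± 1.84 CPM in Control rats, and 5 of 6 CIE rats lay below every Control rat (log2 fold change -0.21 ± 0.08 SE, edgeR p = 0.0213, FDR = 0.484, exact p = 0.0216). *Cr1l*, the rodent membrane regulator Crry, averaged 23.98 ± 1.39 and 21.7 ± 1.45 CPM (log2 fold change 0.14 ± 0.06 SE, edgeR p = 0.0423, FDR = 0.578, exact p = 0.0195). *Csmd1*, a neuronal membrane inhibitor, came next with 219 ± 28.7 and 191 ± 26.1 CPM (log2 fold change 0.20 ± 0.11 SE, edgeR p = 0.0836, FDR = 0.672, exact p = 0.117). None of these differences passed 5% FDR.

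By role, 0 of 3 classical pathway partners of the members were called. *C1r*, which activates C1s, had a log2 fold change of -0.05 ± 0.21 (SE, edgeR FDR = 0.968). The near-identical copies *C4a* and *C4b* had 0.02 and 0.28, and since reads could be split between them these values are uncertain. The lectin pathway had 5 of 8 genes tested, 0 called and a median log2 fold change of -0.13. In the alternative pathway, 3 of 3 genes were tested and 0 called, from -0.62 for *Cfd* (adipsin, 13 to 159 counts, edgeR FDR = 0.709) to 0.16 for *Cfb*. The terminal pathway had 4 of 7 tested, 0 called and fold changes from -0.00018 to 0.13. Fluid-phase regulators had 7 of 9 tested, with *Vtn* as the 1 call, and clusterin (*Clu*), the most abundant of the list in reads, had -0.04 ± 0.07 (SE, edgeR FDR = 0.928). Membrane regulators had 8 of 8 tested, with *Cr1l* as the 1 call, and a median of 0.12. Among the other receptors 4 of 6 were tested and 0 called, with -0.03 for *Itgam* and -0.06 for *Itgb2*, the subunits of complement receptor CR3, and -0.03 for the second C5a receptor *C5ar2*.

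**Figure D4:**
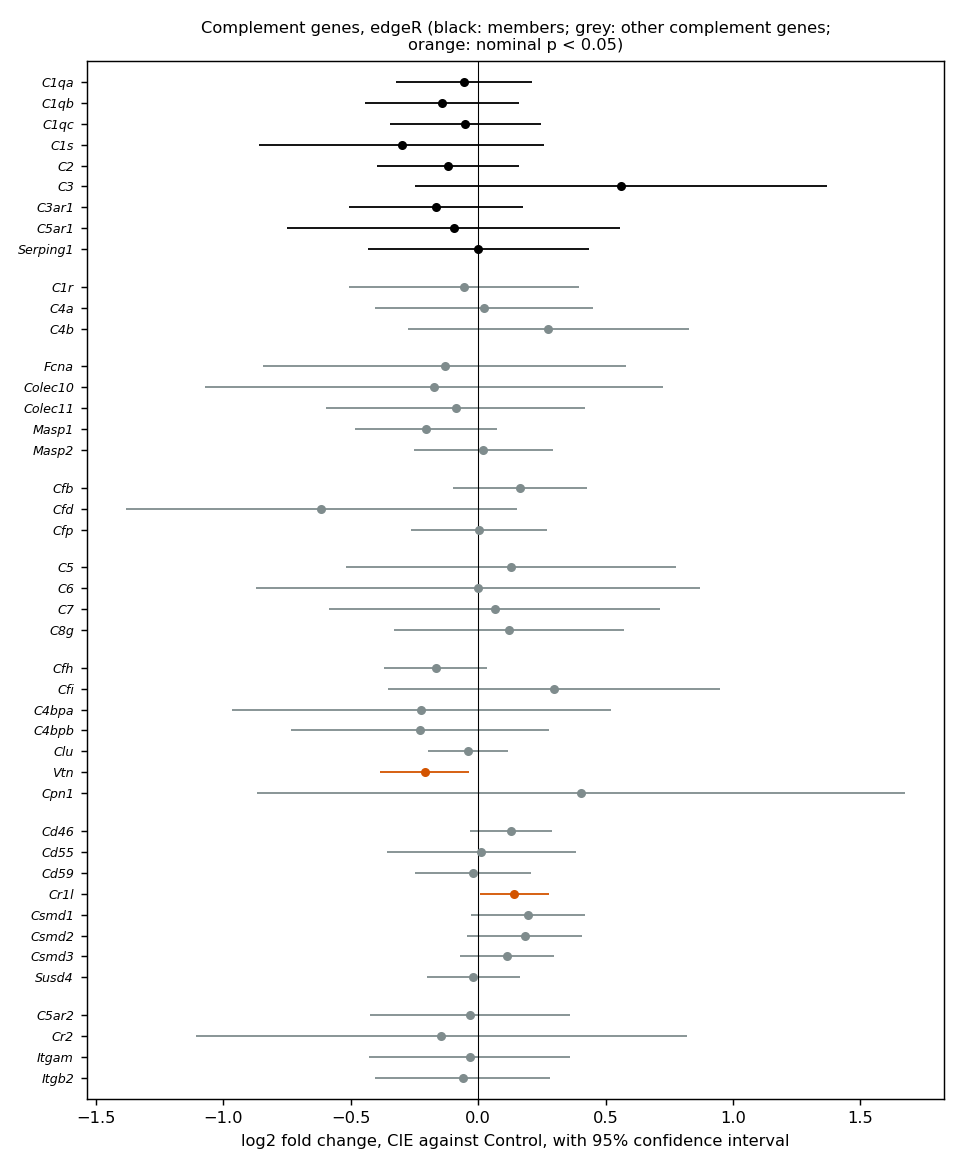
Log2 fold change (CIE against Control) with its 95% confidence interval from edgeR for the 9 members (black) and the 34 other complement genes tested (grey), with nominal calls in orange. All 9 member intervals cross 0, the widest being that of *C3* from -0.25 to 1.37, and the 2 orange intervals are *Vtn* and *Cr1l*.

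Genes whose log2 CPM followed a member most closely over the 12 rats were sought among the 16891 tested genes with a mean of at least 1 CPM. *C1qa* was closest to *LOC102548593* (r = 0.92), *B2m* (0.91), which encodes the light chain of MHC class I, and *C1qc* (0.89). *C1qc* had *LOC102548593* (0.95), *Hibadh* (0.92) and *B2m* (0.91) at the top, and *C1qb* had *S100a13* (0.91), *RGD1561333* (0.91) and *Rpl38-ps1* (0.89). *C1qa* and *C1qc* thus shared 2 of their 3 closest genes, and *C1qb* shared none with them. *Serping1* was closest to *Uba7* (0.91), *Cped1* (0.89) and *Etv6* (0.89), and *C3ar1* to *Nek11* (0.85), *Uba7* (0.84) and *Rpl36a* (0.83). *C3* was closest to *Aatf* (0.87), *Pphln1* (0.86) and *Ppp3cc* (0.84). *C1s* had *Mtbp* (0.91), *Nedd1* (0.89) and *LOC102554507* (0.89), *C2* had *Pfkfb4* (0.90), *LOC687527* (0.89) and *Spdl1* (0.87), and *C5ar1* had *Mybl1* (0.89), *Fmod* (0.86) and *LOC100912571* (0.86). These values describe likeness over 12 rats, chosen as the highest of many genes, and carry no test.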

How the data were processed

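Poly-A RNA-Seq was performed on CeA punches of 12 rats, 6 per group. The authors mapped reads to Rnor_6.0 with BWA, counted reads per gene with HTSeq and deposited raw counts, without a filter on genes. The annotation and the strand and overlap settings are not given in the sources used here. Totals per rat ranged from 39082548 to 95647601 counts, so the member with the fewest counts, *C5ar1*, had 31 in its lowest rat. The groups were compared with edgeR 4.0.16 in R 4.3.3 (TMM, filterByExpr, quasi-likelihood F test, two-sided, no covariates, 20944 genes), and p values were Benjamini-Hochberg adjusted over these genes. Per-rat replicates are separate animals. Alternatives, 21 in all, used DESeq2 1.42.0, limma 3.58.1, sva 3.50.0, other scalings and filters, marker scores as covariates, and leaving out each rat. Single values were compared by exact permutation tests, which cannot give a p below 0.00216 for 6 rats against 6. Correlations used 100000 permutations in Python 3.11.15 with scipy 1.17.1. On simulated counts with 200 genes changed by 1 log2 unit at a single fixed dispersion, edgeR recovered most of them. That change is larger than the main estimate of any member, so the simulation does not show power for the members. Genes named are all members, other complement genes and microglial markers with a nominal p under 0.05 or the 3 smallest p values, and the 3 genes closest to each member, and further complement genes are named for their role, chosen after their values were seen. The members and lists were chosen with earlier results of these data known. Symbols of all 9 members matched RefSeq (GRCr8), whose promoters are shown. The columns of all 12 rats were used.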

Additional observations from a re-analysis of the deposited data

Results flagged for a closer look

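Within groups of 6 rats, 1 value stood far from the others in 2 of the member genes. *C1qa* was 43.3 CPM in CIE rat 3, where the other 5 CIE rats lay between 29.99 and 32.8 CPM. *C5ar1* was 2.01 CPM in CIE rat 6, where the other 5 CIE rats lay between 0.538 and 0.979 CPM. The gap to the nearest rat, as a part of the whole range of the group, was 0.792 and 0.701, above the 95% critical value of Dixon's test for 6 values. In all, 36 sets of 6 values were examined, and chance alone marks about 1 in 20.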

How the results depend on the processing

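The main counts over all genes were 1740 at a nominal p of 0.05 and 76 at 5% FDR. The nominal count was 3596 with limma-voom and 1347 to 2811 when 1 rat was left out (lowest without Control rat 9, highest without CIE rat 3). The FDR count was 294 with DESeq2, 234 with limma-voom, 20 with the microglial score as covariate and 34 to 154 when 1 rat was left out (lowest without Control rat 9, highest without CIE rat 6). Nominal calls split into 837 higher and 903 lower with TMM, and into 1060 higher and 697 lower with library size only. Among the members, 0 passed the nominal threshold in any alternative other than the microglial covariate, where 1 (*C3*) did, and 0 passed 5% FDR in any of the 21. Nominal calls among the 34 other complement genes tested were 2 in the main comparison (8.31% of all genes) and 5 with limma-voom (17.2%). With the microglial covariate they were 0 (6.17% of all genes). Without a filter 1 was called, where 1063 of 29452 genes were higher and 1204 lower. Leaving out 1 rat gave 0 to 4 calls, beside the nominal counts over all genes given above.

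Signs turned with the microglial covariate in *C1qa* (0.031), *C1qb* (0.016), *C1qc* (0.070), *C5ar1* (0.14) and *Serping1* (0.11). *Serping1* also turned with scaling by DESeq2's size factors (0.0070) or by library size alone (0.016), with at least 10 counts in every rat (0.0014) and with DESeq2 (0.0066). Leaving out 1 rat gave log2 fold changes of -0.16 to 0.014 for *C1qc*, -0.44 to 0.036 for *C5ar1* and -0.15 to 0.11 for *Serping1*. Relative to microglial markers, leaving out 1 rat gave -0.052 to 0.092 for *C1qa*, -0.045 to 0.081 for *C1qc*, -0.10 to 0.021 for *C2*, -0.27 to 0.028 for *C5ar1* and -0.056 to 0.14 for *Serping1*. With the fibroblast score, r turned to 0.18 for *C1qa* and 0.12 for *C1qc* on linear CPM, and to -0.047 for *C1qb* and 0.24 for *C3* with group means removed. The cause of these changes was not tested. Among the values of single genes and relations, 407 kept their direction and side of the threshold under an alternative, 20 lost a call, 10 gained one and 37 turned in sign. No paired analysis was possible because rat numbers are not shared between the groups. Counts of 31 to 163 limit *C5ar1*, and 86 to 363 limit *C1s*.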
